A study of Drosophila melanogaster with 66 samples.

Results

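The mRNAs of small Rab GTPases and of the COPI and COPII vesicle coats were followed through the first hours of Drosophila melanogaster development, in whole embryos of the Canton S strain with no transgene. Members were the probe sets annotated with a single gene symbol that begins with Rab followed by a digit or X, or with one of 11 coat gene symbols, and each gene was represented by the probe set of highest mean signal over the 48 untreated gradient arrays. The rule found 33 of the 11982 genes named on the array. They were 22 Rab GTPases, 6 COPI subunits (alphaCOP, betaCOP, gammaCOP, deltaCOP, epsilonCOP and zetaCOP) and the COPII genes Sec16 and Sec31. The rule also took in 3 regulators of Rab3 that are not GTPases (Rab3-GAP, Rab3GAP1 and Rab3-GEF), and these are given apart. The coat genes beta'COP, Sar1 and Sec23, and the GTPases Rab1, Rab4, Rab5, Rab6, Rab7, Rab8 and Rab11, had no probe set under those symbols and were not analysed here.

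Embryos were collected 0-2, 4-6 and 8-10 h after egg laying. In each of the 3 periods 2 untreated extracts were sedimented through sucrose gradients, and each gradient gave 8 arrays, 1 of the pooled top fractions 1-5 and 1 of each fraction from 6 to 12. For each period there were also 1 gradient treated with EDTA, which takes ribosomes off mRNA, in 4 pools of fractions, and 2 arrays of unfractionated RNA. Each sample held whole embryos, so fewer cells of a type and less RNA per cell cannot be told apart.

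Rab GTPases are molecular switches that mark the membranes of the secretory and endocytic pathways and recruit the motors, tethers and other effectors that move and dock vesicles. COPII vesicles bud from the endoplasmic reticulum at exit sites organised by Sec16, with Sec31 in the outer layer of the coat. COPI vesicles carry cargo within the Golgi and back to the endoplasmic reticulum. In its first hours the fly embryo runs on RNA laid down by the mother, and it makes large amounts of new membrane when the blastoderm is divided into cells.

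The mRNA level was the log2 signal of the unfractionated arrays. Ribosomal occupancy was the percentage of a probe set's summed signal that lay in fractions 6-12. The array of the pool stood for 5 fractions and was weighted by that number. It was tested as the Logit, the natural log of the signal in fractions 6-12 over that in fractions 1-5. Position within polysomes was the mean fraction number over fractions 6-12, weighted by signal, so that a higher value lies deeper in the gradient, where mRNAs carry more ribosomes. A profile with the same signal in every fraction gives an occupancy of 58.3% and a position of 9. All arrays had been scaled to a common distribution, so a high value means more of an mRNA relative to the rest of the RNA in that fraction, not more RNA.

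Between the 2 gradients of a period the Logit of the 10358 probe sets tested correlated with r = 0.933, 0.913 and 0.857 at 0-2, 4-6 and 8-10 h, and the unfractionated arrays of a period with r = 0.982 to 0.992. Genes of adult odorant and gustatory receptors, which embryos should not use, served as a measure of background. The period means of 11 such genes ran from log2 3.16 to 5.27, and their median occupancies of 59.5%, 58.4% and 57.5% sat at the value of a flat profile. Not every one was flat. From 0-2 to 4-6 h Or22a, 1 of the 2 tested, rose by 1.29 in level and 0.78 in Logit (limma adjusted p = 0.00132 and 0.00205). Its mean occupancy was 53.7%, 71.7% and 57.5% in the 3 periods, so the receptor range is only a rough measure of background. Maternal germ plasm genes had a median log2 of 10.7 at 0-2 h and of 7.19 at 4-6 h, and muscle genes one of 4.53 at 0-2 h and of 7.34 at 8-10 h.

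Of the 33 members, 29 passed the signal filter and were tested. The 4 that did not were Rab3, RabX5, Rab9Fb and Rab3-GEF, with log2 levels from 2.97 to 4.18. In all 3 periods 23 members lay above every receptor gene. Rab2 and Rab35 did so in 2 periods, from 4-6 h on. Rab9 did so at 0-2 h only and zetaCOP at 8-10 h only, and Rab26 and RabX2 in no period. A member tested can have passed the filter through the period in which it was high, so the counts that follow are descriptions of the genes tested.

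**Figure D1:**
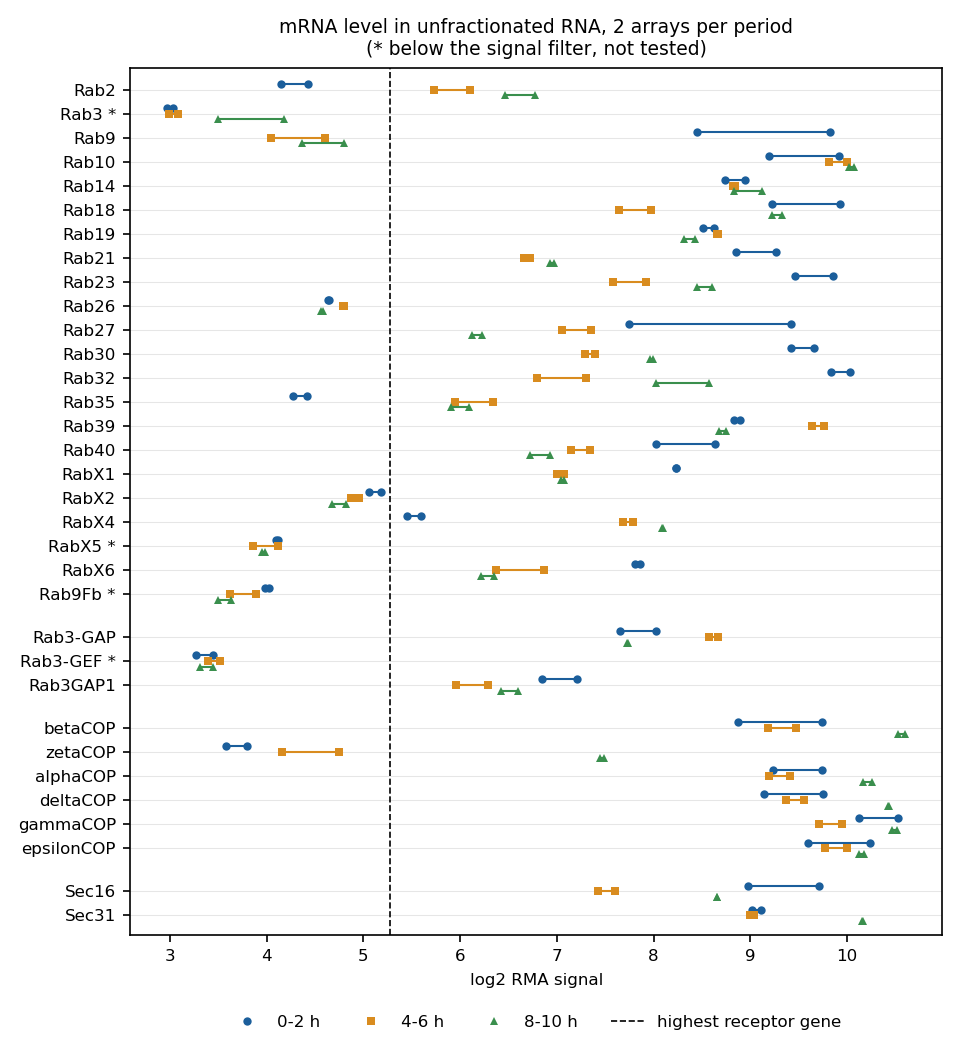
Log2 signal of each member on the 2 unfractionated arrays of each period (points, joined by a line), by gene and grouped as Rab GTPases, Rab3 regulators, COPI and COPII. The dashed line is the highest period mean among the receptor genes, log2 5.27. Rab9 fell from above log2 8 to below the line, and betaCOP, alphaCOP, deltaCOP and Sec31 lay higher at 8-10 h than in both earlier periods.

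The first comparison asked which mRNAs differed in level between the syncytial embryo of 0-2 h and the embryo of 4-6 h. Most Rab genes passed the test, more often downward, while zetaCOP was the one COPI gene that passed. Of 19 Rab GTPases tested, 9 fell and 4 rose, with a median change of -1.08 on the log2 scale against 0.10 over all probe sets tested. Over the 29 members tested 6 rose, or 20.7%, and 11 fell, or 37.9%. Of all probe sets tested 25.9% rose and 24.6% fell.

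The deepest fall was in Rab9, a GTPase of the route from late endosomes to the Golgi. Its log2 level was 8.45 and 9.83 at 0-2 h, 4.04 and 4.60 at 4-6 h, and 4.36 and 4.80 at 8-10 h. The 2 early arrays lay well above all later ones, and the later values lay within the range of the receptor genes. The difference from 0-2 to 4-6 h was -4.82 ± 0.49 (SE, n = 2 arrays per period; limma adjusted p = 0.000904). As both later periods lay within that range, the size of the fall is not exact.

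Rab32, which in flies takes part in making pigment granules, had log2 levels of 10.03 and 9.83, then 6.80 and 7.30, then 8.03 and 8.57. It fell by 2.88 (SE 0.27, adjusted p = 0.000729) and lay higher again at 8-10 h. Rab21, an early endosomal GTPase, went from 8.85 and 9.26 to 6.72 and 6.66 and then 6.97 and 6.93, a fall of 2.37 (SE 0.18, adjusted p = 0.000441). Rab30, known as a Golgi GTPase in mammals, went from 9.43 and 9.66 to 7.39 and 7.29 and then 7.96 and 8.00, a fall of 2.20 (SE 0.15, adjusted p = 0.000334). In these genes, which were described because they passed, both 0-2 h arrays lay above all later ones. Rab23, which acts in planar cell polarity in flies, fell by 1.90 (SE 0.21, adjusted p = 0.00114). The other Rab genes that fell were Rab18, RabX6, RabX1 and Rab40, by 1.08 to 1.77.

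The Rab GTPases that rose were RabX4, Rab35, Rab2 and Rab39. RabX4 had log2 levels of 5.45 and 5.60 at 0-2 h, 7.69 and 7.79 at 4-6 h, and 8.09 and 8.10 at 8-10 h, and its rise of 2.21 ± 0.14 (SE, adjusted p = 0.000276) started from a level just above the receptor range. Rab35, which in mammals acts in recycling to the plasma membrane, rose by 1.80 ± 0.19 (SE, adjusted p = 0.000968) from 4.41 and 4.27 to 6.34 and 5.95. Rab2, a GTPase of traffic between the endoplasmic reticulum and the Golgi, rose by 1.62 ± 0.21 (SE, adjusted p = 0.00204) from 4.43 and 4.15 to 6.10 and 5.73. The 0-2 h values of Rab35 and Rab2 lay within the receptor range, so the sizes of these rises are not exact. Rab39 rose by 0.84 ± 0.13 (SE, adjusted p = 0.00415), from 8.83 and 8.89 to 9.76 and 9.64, and was back at 8.75 and 8.68 at 8-10 h. Rab10, which directs polarised secretion, differed by 0.35 ± 0.26 (SE, adjusted p = 0.317).

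Among the coat genes, Sec16 fell by 1.83 (SE 0.26, adjusted p = 0.00277), from log2 9.71 and 8.98 to 7.43 and 7.60. Sec31, gammaCOP and epsilonCOP differed by -0.05, -0.49 and -0.03, with adjusted p of 0.793, 0.0817 and 0.934. The probe set of zetaCOP rose by 0.76 ± 0.23 (SE, adjusted p = 0.0368), with all 4 values under log2 5 and within the receptor range. A brighter probe set shared by zetaCOP and CG5946 differed by -0.22 (adjusted p = 0.224). Of the Rab3 regulators, Rab3-GAP rose by 0.77 and Rab3GAP1 fell by 0.90, both with an adjusted p of 0.0136. Leaving out 1 library at a time, 13 of the 17 calls held in every fit. Rab40 lost its call without either 4-6 h array (adjusted p = 0.0544 and 0.0808) and when the level was taken from the gradient arrays (0.113), as did, without either 4-6 h array, Rab3-GAP (0.0621 and 0.0815). Rab3GAP1 lost it without 4-6 h replicate 2 (0.0834), and zetaCOP without any array but 4-6 h replicate 1 (0.0502 to 0.147).

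The second comparison set 8-10 h, when the germ band retracts and organs begin to form, against 4-6 h. Of the 8 coat genes 6 rose and none fell, with a median of 1.05 on the log2 scale against -0.05 over all probe sets tested. The Rab GTPases had 4 that rose and 1 that fell, with a median of 0.14. Over the 29 members tested 10 rose, or 34.5%, and 2 fell, or 6.9%. Of all probe sets tested 16.2% rose and 14.1% fell.

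The outer COPII coat gene Sec31 had log2 levels of 9.11 and 9.02 at 0-2 h, 9.04 and 9.00 at 4-6 h, and 10.16 and 10.17 at 8-10 h. The first 4 values lay close together, and it then rose by 1.14 ± 0.13 (SE, adjusted p = 0.00333). Sec16 rose by as much, 1.14 ± 0.26 (SE, adjusted p = 0.0259), to 8.65 and 8.66, which was still below its 0-2 h values. Within COPI, betaCOP rose by 1.24 ± 0.31 (SE, adjusted p = 0.0329) from 9.18 and 9.47 to 10.53 and 10.60. The rises of deltaCOP and alphaCOP were 0.96 and 0.91, with adjusted p of 0.0295 and 0.0265. gammaCOP differed by 0.66 ± 0.19 (SE, adjusted p = 0.0506) and epsilonCOP by 0.27 ± 0.24 (SE, adjusted p = 0.46).

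The probe set of zetaCOP had a log2 level of 4.16 and 4.74 at 4-6 h and 7.45 and 7.49 at 8-10 h, a rise of 3.02 ± 0.23 (SE, adjusted p = 0.00131). A probe set annotated with both zetaCOP and CG5946, which the rule left out, gave 9.23 and 9.31, then 8.99 and 9.10, then 10.62 and 10.63, a rise of 1.58 from 4-6 to 8-10 h (adjusted p = 0.00159). In this interval both probe sets rose, by unlike amounts. The 4-6 h level of the dimmer one lay within the receptor range, so the size of its rise is not an exact measure.

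Among the Rab GTPases Rab18, found at lipid droplets and the endoplasmic reticulum, rose by 1.47 ± 0.27 (SE, adjusted p = 0.0128), back to 9.23 and 9.33 from 7.64 and 7.98. Rab32 rose by 1.25 ± 0.27 (SE, adjusted p = 0.0211), and Rab23 and Rab30 rose by 0.77 and 0.64. All 4 were genes that had fallen before. Rab39 fell by 0.99 (SE 0.13, adjusted p = 0.00535) and the Rab3 regulator Rab3-GAP by 0.89 (SE 0.17, adjusted p = 0.0156), both after a rise. The first and second comparisons share the arrays of the middle period with opposite sign. A low value there favours a fall followed by a rise, and a high value the reverse. These reversals are therefore descriptions, and their number with no change in level was not tested. Rab10 differed by 0.14 ± 0.26 (SE, adjusted p = 0.728).

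These calls rested on few arrays. The number of members passed was 2 without 4-6 h replicate 1, 5 without 4-6 h replicate 2, 4 without 8-10 h replicate 1 and 2 without 8-10 h replicate 2. Only zetaCOP and Sec31 passed in every such fit. Without each of the 4 arrays in turn the adjusted p of betaCOP was 0.0965 to 0.176, of deltaCOP 0.0965 to 0.165, of alphaCOP 0.0844 to 0.156 and of Sec16 0.0929 to 0.149. It was 0.0785 to 0.216 for Rab23, 0.117 to 0.156 for Rab30, with 0.603 from the gradient arrays, and 0.0863 to 0.0958 for Rab3-GAP. Rab18 kept its call only without 4-6 h replicate 2 and otherwise had 0.0664 to 0.0928. Rab32 and Rab39 lost theirs without 4-6 h replicate 1 or 8-10 h replicate 2, at 0.112 to 0.122 and 0.0525 to 0.0531.

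Set directly against 0-2 h, which shares its arrays with the first comparison, the 8-10 h embryo had 8 members that rose and 9 that fell. That was 27.6% and 31.0% of those tested, beside 27.2% and 27.1% of all probe sets tested. All 9 that fell were Rab GTPases, of which Rab9 fell by 4.56 and Rab27, a GTPase of secretory vesicles in mammals, by 2.41. Rab27 had log2 levels of 7.75 and 9.43 at 0-2 h against 6.12 and 6.23 at 8-10 h, and lost its call without either 8-10 h array (adjusted p = 0.0605 and 0.0546). The 8 that rose were RabX4, Rab2 and Rab35, by 1.66 to 2.57, and the coat genes zetaCOP, betaCOP, Sec31, deltaCOP and alphaCOP, by 0.73 to 3.78. The 8-10 h level of Rab9 and the 0-2 h levels of Rab2, Rab35 and zetaCOP lay within the receptor range. The sizes of these 4 changes are therefore not exact. The probe set shared by zetaCOP and CG5946 rose by 1.36 (limma adjusted p = 0.000656), against 3.78 for that of zetaCOP. Without either 8-10 h array betaCOP and deltaCOP lost their calls (0.0712 to 0.0828), and alphaCOP did so also without either 4-6 h array (0.0605 to 0.141). When the level was taken from the gradient arrays instead, Sec31 and Rab23 no longer passed in this comparison (adjusted p = 0.863 and 0.462).

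Ribosomal occupancy differed widely among the members at 0-2 h, from 20.6% ± 0.778 (SD, n = 2 gradients) for Rab9 to 88.4% ± 0.987 for RabX1. Of 29 members tested 7 had less than 40% of their signal in fractions 6-12, or 24.1%, beside 12.6% of all probe sets tested. They were Rab9, Rab21, Rab27, Rab32, Rab40, deltaCOP and Sec16. At the other end, after RabX1, lay epsilonCOP with 78.3% ± 7.94 and Rab2 with 77.8% ± 2.71, the latter at a level within the receptor range. By 4-6 h and again by 8-10 h, 1 of these remained under 40%, which was Rab27. The share of all probe sets tested under 40% fell as well, to 3.05% and 3.57%, close to the 3.45% of the members. The median occupancy over the members tested was 57.5%, 65.3% and 66.9% in the 3 periods, against 58.6%, 61.0% and 61.3% over all probe sets tested.

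**Figure D2:**
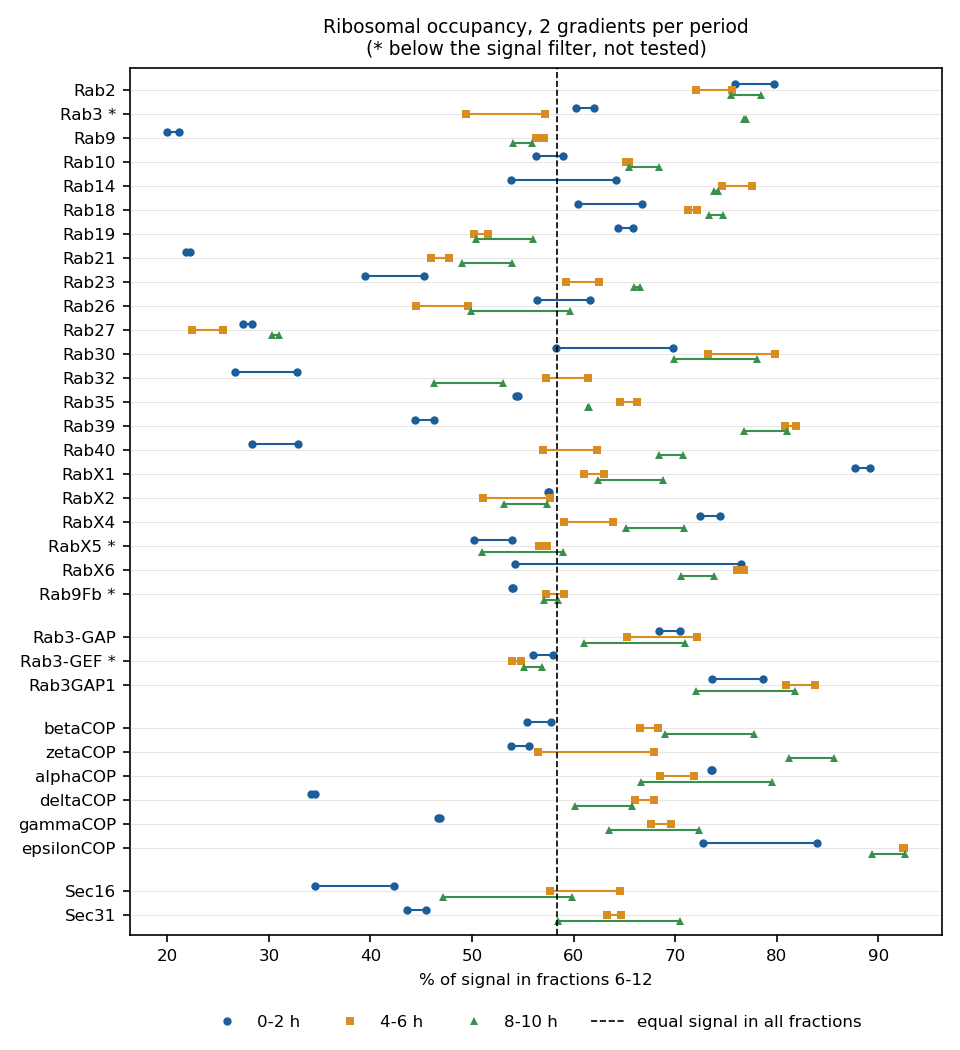
Percentage of signal in fractions 6-12 for each member in the 2 untreated gradients of each period (points, joined by a line). The dashed line at 58.3% is the value of a profile with equal signal in all fractions, where probe sets with no signal above background also lie. Rab9, Rab21, Rab32, Rab40, deltaCOP and Sec16 moved to the right after 0-2 h, RabX1 moved to the left, and Rab27 stayed under 31% throughout.

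The comparison of 4-6 h with 0-2 h asked which mRNAs shifted between the light and the polysomal fractions. Most Rab and coat mRNAs that differed had a larger share of signal in fractions 6-12 at 4-6 h. By the Logit, 14 members rose, or 48.3%, and 4 fell, or 13.8%. Of all probe sets tested 26.3% rose and 19.7% fell. The median change was 0.46 for the 19 Rab GTPases and 0.85 for the 8 coat genes, against -0.01 over all probe sets tested.

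Rab39, a GTPase linked to lysosomal traffic, changed most. Its occupancy was 46.2% and 44.4% in the gradients of 0-2 h, 80.8% and 81.9% at 4-6 h, and 81.0% and 76.8% at 8-10 h, and its Logit rose by 1.66 ± 0.18 (SE, adjusted p = 2.94e-06) while its level also rose. Within the polysomes it peaked in fraction 9 or 10 in all 6 gradients, so that the share in fractions 6-12 grew without a move of the peak. Rab9 went from 21.1% and 20.0% to 57.1% and 56.3%, a Logit rise of 1.62 ± 0.17 (SE, adjusted p = 2.77e-06). Its later values are those of a flat profile and were measured at a level within the receptor range, so that they cannot be told apart from background. The low occupancy of Rab9 at 0-2 h was measured at log2 8.45 and 9.83.

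Rab32 went from 26.7% and 32.8% to 61.4% and 57.3%, with a Logit rise of 1.24 ± 0.19 (SE, adjusted p = 5.44e-05). Rab40, which serves a ubiquitin ligase through its SOCS box, went from 28.3% and 32.9% to 62.3% and 56.9% and reached 68.4% and 70.7% at 8-10 h. Its Logit rose by 1.21 ± 0.18 (SE, adjusted p = 4.87e-05) from 0-2 to 4-6 h. Rab21 went from 21.8% and 22.3% to 47.7% and 45.9%, a Logit rise of 1.14 ± 0.17 (SE, adjusted p = 6.39e-05). These 3 mRNAs were among those whose level fell between the same periods. Rab14, a GTPase of endosomes and the Golgi, Rab23, Rab30 and Rab35 rose by 0.46 to 0.79.

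Against this direction went RabX1, Rab19, RabX4 and Rab26. RabX1 had 89.1% and 87.7% of its signal in fractions 6-12 at 0-2 h, 63.0% and 61.0% at 4-6 h, and 68.8% and 62.4% at 8-10 h. It had the highest occupancy of the members in the early embryo and fell by 1.55 in Logit (SE 0.18, adjusted p = 5.77e-06). RabX4, whose level rose, fell by 0.55 (SE 0.18, adjusted p = 0.02), from 74.4% and 72.5% to 63.9% and 59.0%. Rab19 fell by 0.59 (SE 0.18, adjusted p = 0.0113), from 64.4% and 65.8% to 51.5% and 50.2%. Rab26, a GTPase of secretory and synaptic vesicles, fell by 0.48 (SE 0.19, adjusted p = 0.0496) at a level within the receptor range in every period. Rab27 stayed at the bottom, with 28.3% and 27.5%, then 25.5% and 22.5%, then 30.3% and 30.9%, and its Logit differed by -0.20 ± 0.17 (SE, adjusted p = 0.372). Rab10 went from 56.3% and 59.0% to 65.4% and 65.2%, a difference of 0.32 ± 0.17 (SE, adjusted p = 0.146).

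In the coats, 5 of 8 genes rose and none fell. For deltaCOP occupancy was 34.6% and 34.1% at 0-2 h, 67.9% and 66.0% at 4-6 h, and 60.1% and 65.8% at 8-10 h, a Logit rise of 1.36 ± 0.18 (SE, adjusted p = 1.52e-05) with no difference in level that passed. epsilonCOP started at 72.7% and 83.9% and reached 92.5% and 92.4%, the highest occupancy of any member in that period, a rise of 1.19 ± 0.22 (SE, adjusted p = 0.000345). gammaCOP went from 46.9% and 46.6% to 67.6% and 69.5%, a rise of 0.91 ± 0.19 (SE, adjusted p = 0.000746). Subunits of one coat thus started from unlike places: alphaCOP was at 73.6% and 73.5% at 0-2 h and at 68.5% and 71.9% at 4-6 h, and its Logit differed by -0.17 ± 0.21 (SE, adjusted p = 0.569). In COPII, Sec16 went from 42.4% and 34.6% to 64.6% and 57.7%, a rise of 0.93 ± 0.21 (SE, adjusted p = 0.0016). Sec31 went from 43.6% and 45.5% to 63.3% and 64.6%, a rise of 0.79 ± 0.20 (SE, adjusted p = 0.00316).

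Without 1 gradient at a time, 13 of the 18 Logit calls held in every fit. Rab26 and Rab35 lost their calls without any 1 of the 4 gradients compared (adjusted p = 0.06 to 0.272 and 0.101 to 0.172). Rab19 lost it without 0-2 h replicate 2 or either 4-6 h gradient (0.0551 to 0.0802), RabX4 without 0-2 h replicate 1 or 4-6 h replicate 2 (0.0957 and 0.165), and Rab30 without 0-2 h replicate 1 or 4-6 h replicate 1 (0.307 and 0.287). When fractions 6 and 7 were counted as free of polysomes, Rab14, Rab19, Rab26, Rab30, Rab35 and RabX4 did not pass (adjusted p = 0.115, 0.0804, 0.0563, 0.201, 0.103 and 0.126).

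**Figure D3:**
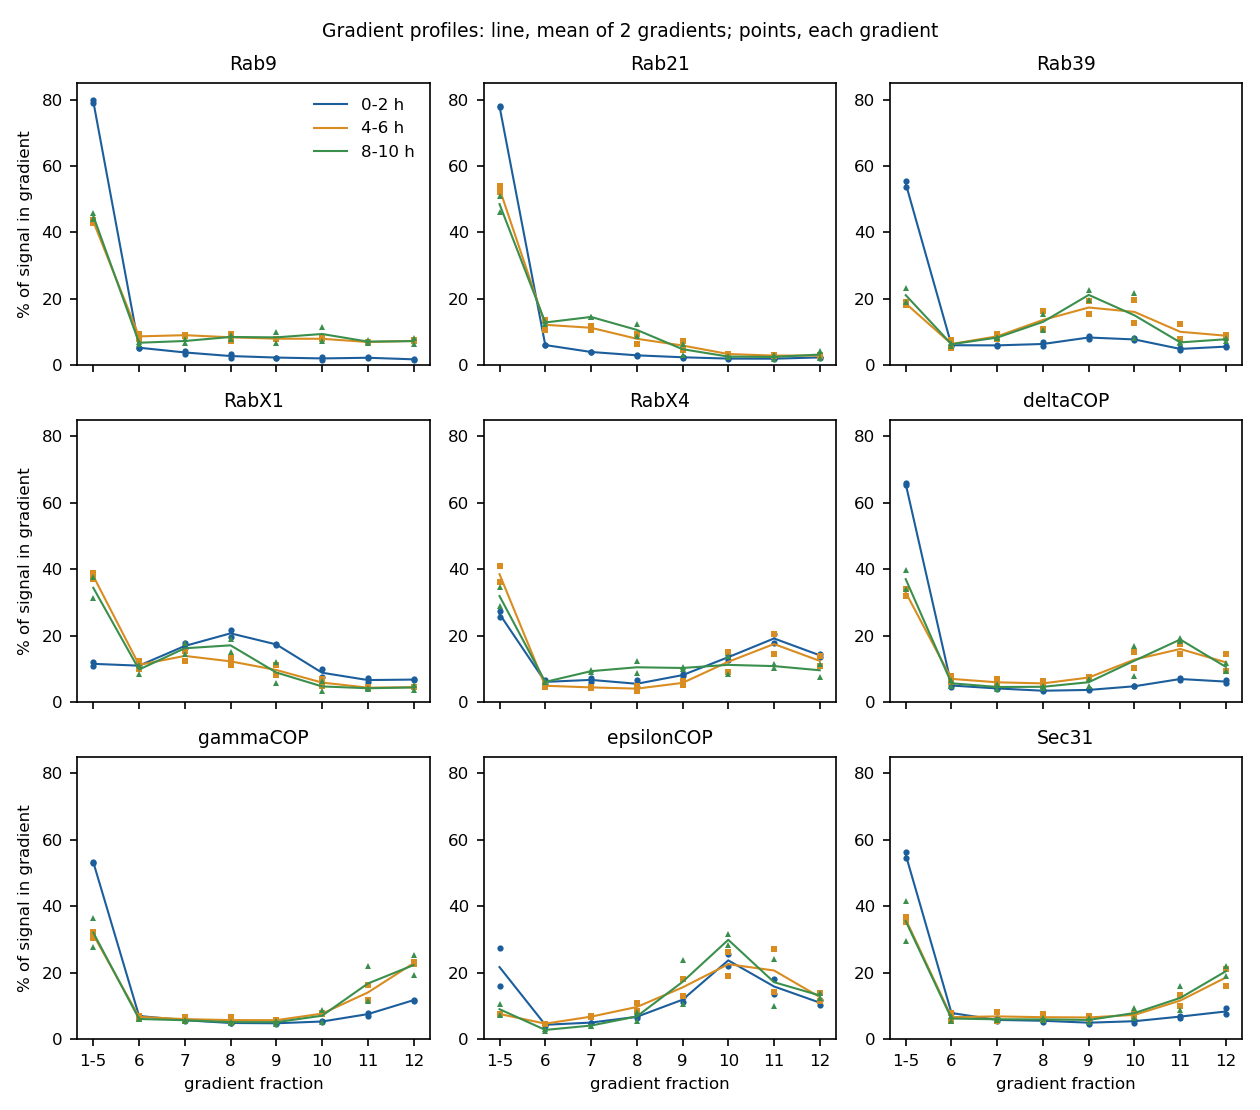
Share of each mRNA's signal in the pool of fractions 1-5 and in fractions 6 to 12, in percent, for 9 members at 0-2, 4-6 and 8-10 h. Lines are means of 2 gradients and points are single gradients. Rab9, Rab39, deltaCOP, gammaCOP and Sec31 had less of their signal in the pool after 0-2 h, and RabX1 had more. The highest polysomal fraction was 6 or 7 for Rab21, near 10 for epsilonCOP and 12 for gammaCOP in most gradients.

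From 4-6 to 8-10 h few differences in occupancy passed, among the members as among all genes. Of the 29 members tested 1 rose, or 3.45%, and none fell, beside 3.48% and 2.78% of all probe sets tested. At an unadjusted p under 0.05 there were 2 of the 29 members, beside 1899 of the 10358 probe sets tested. The member that rose was zetaCOP, from 67.9% and 56.5% to 81.2% and 85.6%, a Logit rise of 1.12 ± 0.20 (SE, adjusted p = 0.0028). It lost the call without 4-6 h replicate 2 (adjusted p = 0.1) and when fractions 6 and 7 were counted as free of polysomes (0.483). Its 4-6 h values were measured at a level within the receptor range. The shared probe set of zetaCOP and CG5946 had 81.0% and 74.0% at 4-6 h and 83.0% and 81.9% at 8-10 h, and its Logit differed by 0.30 (adjusted p = 0.456).

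Compared directly with 0-2 h, the 8-10 h gradients had 15 members higher and 2 lower in Logit. That was 51.7% and 6.9%, beside 28.7% and 20.8% of all probe sets tested. In this comparison, which uses the same 0-2 h gradients, 7 of the 8 coat genes rose, betaCOP and zetaCOP among them, and alphaCOP differed by 0.00 ± 0.21 (SE, adjusted p = 0.997). The 0-2 h value of zetaCOP came from a level within the receptor range, and the probe set shared with CG5946, with 81.6% and 85.9% at 0-2 h, differed by -0.10 in Logit (adjusted p = 0.715). Rab40, Rab9, Rab39 and Rab21 rose by 1.32 to 1.65, and RabX1 and Rab19 fell by 1.39 and 0.49. The 8-10 h occupancies of Rab9, 54.1% and 55.9%, were near a flat profile and came from a level within the receptor range. The rise of Rab9 thus cannot be told apart from a change to background. Calls lost without 1 gradient were those of Rab14 (0-2 h replicate 1, adjusted p = 0.102), Sec16 (0-2 h replicate 2 or 8-10 h replicate 2, 0.171 and 0.223), Rab19 (either 0-2 h gradient or 8-10 h replicate 2, 0.0669 to 0.132) and Rab18 (any but 0-2 h replicate 2, 0.0543 to 0.21). With fractions 6 and 7 counted as free of polysomes, Rab14, Rab18, Rab19 and zetaCOP did not pass (0.0545, 0.329, 0.0922 and 0.12).

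The place of these mRNAs within the polysomes set the coats apart from most Rab GTPases as a description. The number of ribosomes an mRNA can hold grows with the length of its coding region, and coding lengths were not used here. In every one of the 6 untreated gradients 6 of the 8 coat genes had a mean position above 9, as did 2 of the 19 Rab GTPases tested, which were RabX4 and Rab2. A position below 9 in every gradient was found in 10 Rab GTPases and in 1 coat gene, zetaCOP. Rab2 was only just above 9 in 1 of the 0-2 h gradients, at 9.002 and at a level within the receptor range. The share of all probe sets above or below 9 in every gradient was not counted. The median position of the Rab GTPases tested was 8.74, 8.73 and 8.81 in the 3 periods, and that of COPI was 9.57, 9.83 and 9.98. Over all probe sets tested it was 9.02, 9.03 and 9.05.

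At 0-2 h alphaCOP had a position of 10.34 and 10.17 and Rab19, nearest the top of the gradient, one of 7.85 and 7.89. Signal peaked in fraction 12 in all gradients for alphaCOP and betaCOP and in 5 of 6 for gammaCOP. epsilonCOP, a smaller subunit, peaked in fraction 10 in 5 of 6 gradients, and Rab27 in fraction 6 in all of them. The Rab3 regulators Rab3-GAP and Rab3GAP1, at 9.77 and 9.63 and at 10.30 and 10.04, lay with the coat genes.

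Between 0-2 and 4-6 h 4 members moved deeper and none moved toward the top, 13.8% and 0% of those tested, beside 13.9% and 8.46% of all probe sets tested, so the share that moved deeper was near that of all genes. Sec31 moved from 9.13 and 9.02 to 9.45 and 9.99, a difference of 0.64 ± 0.17 fractions (SE, adjusted p = 0.0175). Sec16 moved from 8.72 and 8.60 to 9.05 and 9.53, or 0.63 ± 0.17 (SE, adjusted p = 0.0182), and its highest polysomal fraction went from 6 to 12. gammaCOP moved from 9.42 and 9.37 to 9.85 and 10.08, or 0.57 ± 0.13 (SE, adjusted p = 0.00587). Rab9 moved by 0.55 ± 0.12 (SE, adjusted p = 0.00579), to 8.85 and 8.84, at a level within the receptor range.

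None of these 4 calls held in every fit. Without 0-2 h replicate 1 no member passed. The adjusted p then was 0.0922 for Rab9, 0.0502 for gammaCOP, 0.0812 for Sec16 and 0.0786 for Sec31. Sec16 and Sec31 lost their calls also without 0-2 h replicate 2 (0.153 and 0.149) or 4-6 h replicate 2 (0.149 and 0.151), and gammaCOP without 0-2 h replicate 2 (0.0755). With the log2 ratio of fractions 10-12 over 6-9 in place of the mean position the adjusted p was 0.148 for Rab9, 0.0577 for gammaCOP, 0.0973 for Sec16 and 0.152 for Sec31.

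From 4-6 to 8-10 h none moved deeper and 1 member moved toward the top, RabX4, beside 4.94% and 2.72% of all probe sets tested. It had positions of 9.78 and 9.77 at 0-2 h, 9.98 and 9.86 at 4-6 h, and 9.03 and 9.37 at 8-10 h, a fall of 0.72 fractions from the middle period (SE 0.14, adjusted p = 0.00694). The call was lost without 8-10 h replicate 1 (adjusted p = 0.0721). Against 0-2 h, 5 members moved deeper (Sec31, Rab9, gammaCOP, Sec16 and deltaCOP, by 0.50 to 0.80) and 4 toward the top (zetaCOP, RabX4, Rab40 and Rab21, by 0.45 to 0.74), beside 18.5% and 13.0% of all probe sets tested. Sec31, Rab9, gammaCOP and zetaCOP held this call without each gradient in turn, and the others lost it without 0-2 h replicate 1 or another gradient. Rab9 at 8-10 h and zetaCOP at 0-2 h were at levels within the receptor range. Their positions there, 9.04 and 8.91, were near the 9 of a flat profile, so these 2 moves cannot be told apart from a change to or from background.

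**Figure D4:**
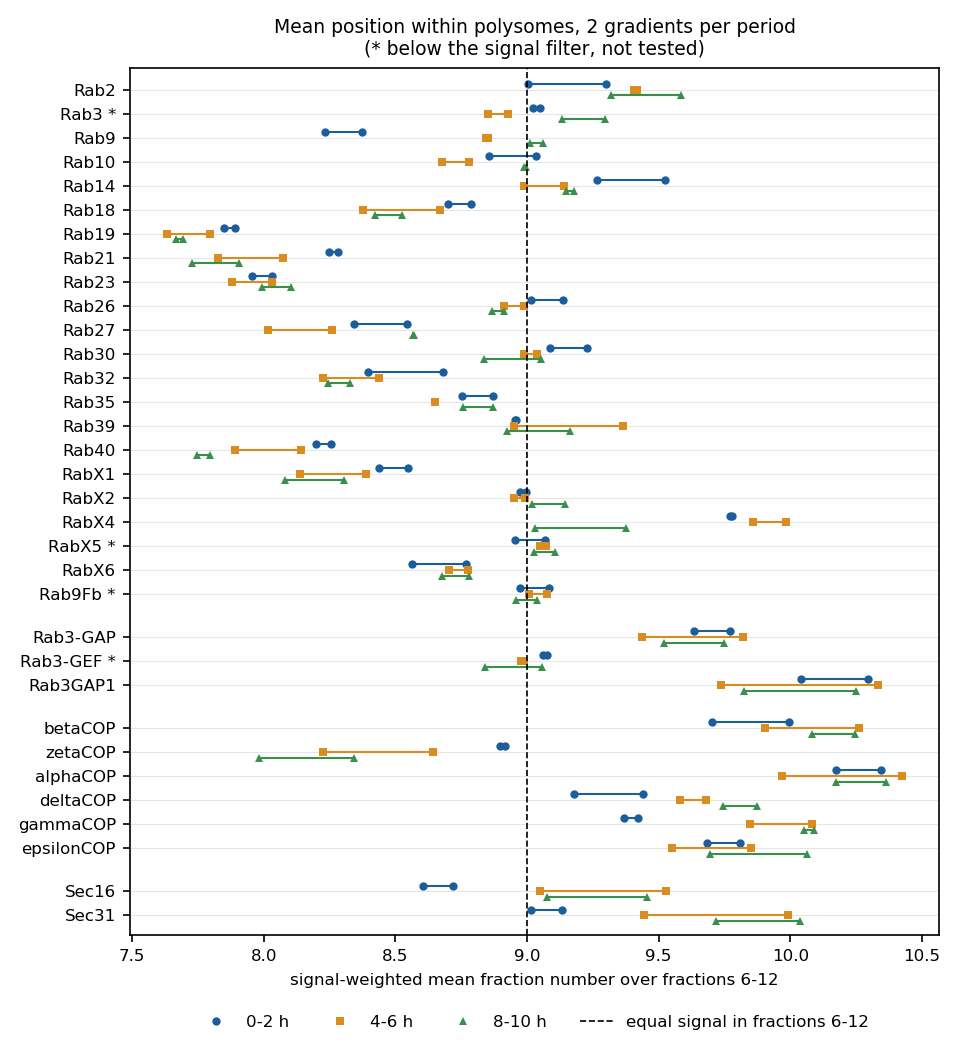
Mean fraction number over fractions 6-12, weighted by signal, for each member in the 2 untreated gradients of each period (points, joined by a line). The dashed line at 9 is the value of equal signal in these fractions. The coat genes other than zetaCOP lie mostly to the right of the line and most Rab GTPases to the left, and RabX4 lies further left at 8-10 h than in both earlier periods.

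EDTA served to ask whether signal deep in the gradient belonged to ribosomes. When ribosomes come off, mRNA moves to the light fractions. As arrays were scaled to a common distribution, pool signal should rise only for mRNAs that had been loaded more than most. An mRNA loaded like most others need not rise, and a less loaded one can fall although it held ribosomes. The median EDTA effect over all probe sets tested was -0.03, 0.06 and 0.06 in the 3 periods. The EDTA pools of deeper fractions were not tested. The untreated arrays of the pool were also those used for occupancy. A low value there raises both the occupancy and the EDTA effect, and a high value lowers both. Occupancy and EDTA effect of a gene are therefore not independent measures. Each period had 1 EDTA gradient, so the standard errors and p-values take their spread from the untreated replicates alone and hold none of the EDTA gradients' own. At 0-2 h 1 member rose and 2 fell, beside 6.33% and 2.36% of all probe sets tested. At 4-6 h 4 rose and 2 fell, beside 12.9% and 3.49%. At 8-10 h 5 rose and 1 fell, beside 12.6% and 3.52%.

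The mRNA with the highest occupancy from 4-6 h on, epsilonCOP, gained most. Its log2 signal in the pool was 6.70 and 6.94 without and 9.53 with EDTA at 4-6 h, a rise of 2.72 ± 0.37 (SE, adjusted p = 0.0034). At 8-10 h it was 7.00 and 7.55 without and 9.87 with EDTA, a rise of 2.59 ± 0.37 (SE, adjusted p = 0.00553). At 0-2 h the difference was 0.78 ± 0.37 (SE, adjusted p = 0.244). Rab39 gained 1.75 ± 0.34 (SE, adjusted p = 0.0108) and 1.57 ± 0.34 (SE, adjusted p = 0.017) at 4-6 and 8-10 h, the periods of its higher occupancy. RabX1, whose occupancy was highest at 0-2 h, went from 6.47 and 6.45 to 8.04 in that period, a rise of 1.58 ± 0.30 (SE, adjusted p = 0.015). At 4-6 h both Rab3 regulators rose, Rab3GAP1 by 1.24 and Rab3-GAP by 1.04, and at 8-10 h zetaCOP, betaCOP and alphaCOP rose by 1.14 to 1.36.

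Rab27, under 31% occupancy in every gradient, went the other way in each period. Its pool signal was 8.58 and 9.02 without and 7.58 with EDTA at 0-2 h, 8.86 and 8.83 without and 6.78 with EDTA at 4-6 h, and 7.64 and 7.66 without and 6.29 with EDTA at 8-10 h. The falls were 1.22, 2.06 and 1.36 (adjusted p = 0.0294, 0.00332 and 0.0139). deltaCOP fell by 1.25 (SE 0.28, adjusted p = 0.0271) at 0-2 h, from 10.22 in both gradients to 8.97, when 65.7% of its untreated signal was in the pool. Rab21 fell by 1.08 (SE 0.27, adjusted p = 0.0257) at 4-6 h. For gammaCOP, Rab10 and Sec31 no difference passed, with changes from -0.68 to 0.84, and for Sec16 the adjusted p was 0.198, 0.924 and 0.104 in the 3 periods. A difference between periods in the EDTA effect passed in none of the members. At an unadjusted p under 0.05 there were 6, 1 and 6 of the 29 members for the 3 pairs of periods. Beside these stood 1801, 661 and 2045 of the 10358 probe sets tested. After adjustment 0, 2 and 7 of all probe sets tested passed, or 0.00%, 0.0193% and 0.0676%.

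Without 1 untreated library the 0-2 h calls were lost: RabX1 without either 0-2 h gradient (adjusted p = 0.0636 and 0.114), Rab27 without 0-2 h replicate 2 or either 4-6 h gradient (0.0604 to 0.173) and deltaCOP without any gradient of 0-2 or 4-6 h (0.0548 to 0.155). At 4-6 h epsilonCOP and Rab27 kept their calls in every fit. Rab39 lost it without 4-6 h replicate 1 (0.0548), Rab21 without either 4-6 h gradient (0.0798 and 0.126), and the Rab3 regulators without any gradient of 0-2 or 4-6 h (0.0637 to 0.19). At 8-10 h alphaCOP alone lost its call, without 8-10 h replicate 2 or any gradient of 0-2 or 4-6 h (0.0733 to 0.0888).

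Set side by side between 0-2 and 4-6 h, level and occupancy passed in opposite directions for a number of members, at a share not far from that of all genes. Of the 11 members whose level fell, 7 rose in Logit, or 63.6%, and 1, RabX1, fell. Over all probe sets tested 52.5% of those whose level fell rose in Logit. The median occupancy at 0-2 h was 42.4% for the members whose level then fell and 62.1% for those whose level rose, against 48.8% and 67.9% over all probe sets tested. Across the 29 members the changes in level and Logit had a Pearson r of -0.375 and a Spearman rho of -0.384, and across all probe sets tested an r of -0.37. These are descriptions across genes measured in the same libraries, and genes are not independent replicates.

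**Figure D5:**
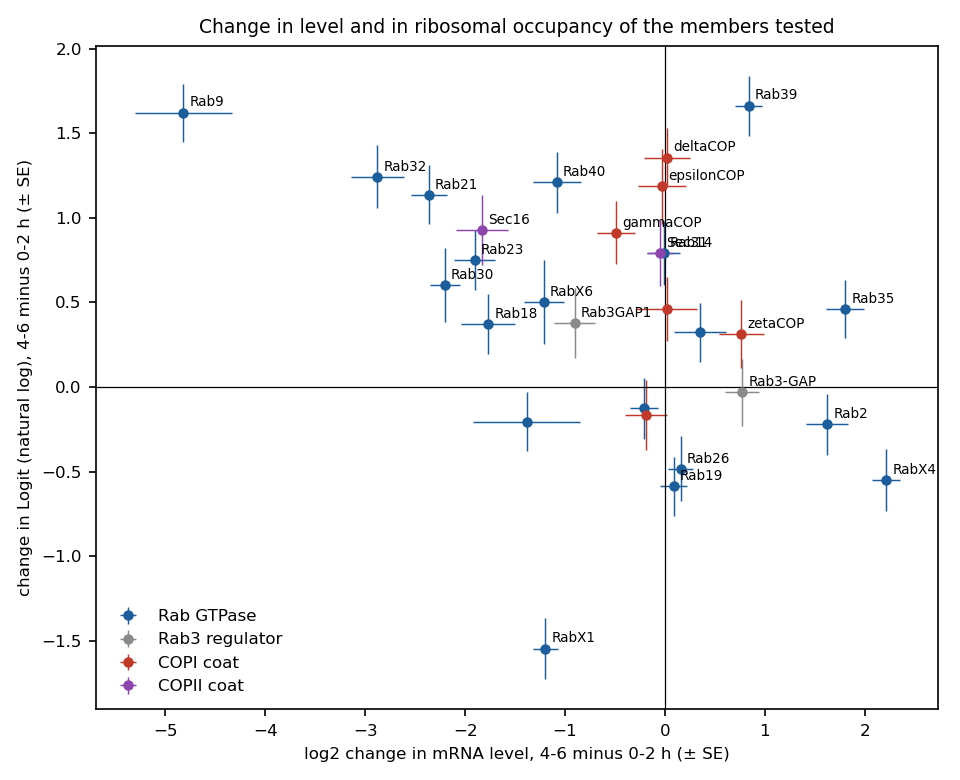
Change in log2 level (x axis) and in Logit, on a natural log scale (y axis), from 0-2 to 4-6 h for the 29 members tested, with standard errors of the fit and coloured by role. Names mark members that passed either test. Rab9, Rab32 and Rab21 lie at the upper left, with lower level and higher Logit, deltaCOP and epsilonCOP near a level change of 0, Rab39 higher in both and RabX1 lower in both.

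Other genes of membrane traffic were counted from lists chosen by function. From 0-2 to 4-6 h the Logit rose in 11 and fell in 2 of 22 Rab escort, regulator and effector genes, beside 26.3% and 19.7% of all probe sets tested. Among them Gdi, the protein that extracts Rab GTPases from membranes, rose by 1.65 (adjusted p = 5.87e-06), and BicD, an adaptor for dynein, fell by 1.27 (adjusted p = 8.44e-05). It rose in 13 and fell in 4 of 32 tethering genes, led by Golgin104 with 2.41, and in 11 and 2 of 21 retromer and ESCRT genes, led by Snx1 with 1.85. In 19 SNARE genes and partners 9 rose and 2 fell, in 14 clathrin and adaptor genes 4 rose and none fell, in 11 Arf and Arl genes 5 rose and 1 fell, and in 5 further COPII genes 1 rose, which was Sec24CD. The clathrin and COPII shares were close to or below that of all probe sets tested.

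Sec24CD belongs to the cargo-binding part of the COPII coat. Its mean occupancy was 37.4%, 67.6% and 73.9% in the 3 periods, its Logit rose by 1.25 from 0-2 to 4-6 h (adjusted p = 4.28e-05), and its level rose by 1.57 from 4-6 to 8-10 h (adjusted p = 0.00274). The other 4 further COPII genes did not pass in that interval, and the median of the 5 was 0.47. From 0-2 to 4-6 h Tango14, of the same list, fell by 1.96 in level (adjusted p = 0.00471). From 4-6 to 8-10 h 16.2% of all probe sets tested rose in level and 14.1% fell. Levels rose in 6 and fell in 1 of the 32 tethering genes. They rose in 5 of 19 SNARE genes and in 4 of 14 clathrin and adaptor genes, with none lower in either list. They rose in 3 and fell in 3 of the 22 Rab escort, regulator and effector genes. Among 21 retromer and ESCRT genes 6 rose and 1 fell, and among 11 Arf and Arl genes 2 rose and 2 fell. The medians of these lists lay between 0.06 and 0.47, below the 1.05 of the 8 COPI and COPII genes. As given above, most coat calls in this interval did not hold without each array.

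Of the 4 members that were not tested, RabX5, Rab9Fb and Rab3-GEF had occupancies from 50.2% to 59.1% in all gradients. Rab3, the GTPase of synaptic vesicles, had 60.2% and 62.0% at 0-2 h, 57.2% and 49.4% at 4-6 h, and 77.0% and 76.8% at 8-10 h, with log2 levels of 3.03 and 2.97, then 2.99 and 3.08, then 3.49 and 4.18. Both of its 8-10 h gradients lay above the earlier ones and above the highest value of a receptor gene in any gradient, 74.1%. RabX2, which was tested, had occupancies from 51.1% to 57.7% and passed no test.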

How the data were processed

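The deposited table held log2 signals of 66 Affymetrix Drosophila Genome 2.0 arrays, which the authors background-corrected, scaled to one another and summarised per probe set by RMA in Bioconductor's affy package. Arrays have no read depth, and the number of arrays limits the precision. Log2 values were used as deposited. Array medians ran from 4.56 to 5.13, and no 2 arrays were identical. Gene symbols came from the array annotation, and all 33 members matched a RefSeq gene of the same symbol by Entrez ID. Signals of different probe sets were not compared as amounts, and were ranked only to choose which genes to describe.

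Of 18769 probe sets without controls, those in the top 50% of mean gradient signal in at least 1 period were tested (10358). Each measure was fitted in limma 3.58.1 (R 4.3.3) with 1 mean per period, and the EDTA effect with treatment and period, with no replicate block, and p-values were adjusted over all probe sets tested by Benjamini-Hochberg at 0.05. Scripts were tested on simulated data. The labels call the replicates biological, and the methods call those of the gradients independent. Neither says that embryo collections were separate, so p-values measure the spread between these samples. With 2 against 2 an exact permutation test cannot go below 0.333. Members and gene lists were chosen with earlier results of these data known. All members could be named. Values went first to the members that passed, up to 5 in each direction by size, and to the 2 of each role with the highest unfractionated signal, and of each list to the largest rise and fall. Alternatives were other filters, weights, centring, position measures, a replicate block and leaving out each replicate, where a lone sample was assumed to vary like the others.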

Additional observations from a re-analysis of the deposited data

How the results depend on the processing

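No result changed direction under any alternative setting tried. The probe set shared by zetaCOP and CG5946 did differ in direction from that of zetaCOP. It gave -0.22 in level from 0-2 to 4-6 h and -0.10 in Logit from 0-2 to 8-10 h (limma adjusted p = 0.224 and 0.715), where the zetaCOP probe set rose. With only the top 25% of signal tested, 18 members were left, of which 9 passed in level from 0-2 to 4-6 h and 9 from 0-2 to 8-10 h, 0 in Logit from 4-6 to 8-10 h, 5 in position from 0-2 to 8-10 h and 3 in the EDTA effect at 4-6 h. In Logit from 4-6 to 8-10 h 2 members passed without a filter and 0 with fractions 6 and 7 counted as free of polysomes. The log2 ratio of fractions 10-12 over 6-9 gave 1 member from 0-2 to 4-6 h. With replicate number as a block, 1, 3 and 1 members passed for EDTA at 0-2, 4-6 and 8-10 h (at 8-10 h Rab27, Rab39, betaCOP, zetaCOP and alphaCOP had adjusted p of 0.0537, 0.0575, 0.0582, 0.0605 and 0.125), and 2 in position from 4-6 to 8-10 h; no other count moved by over 1.5 times. The labels name no shared batch, and the numbers were not read as pairs. Same-numbered samples deviated together with r from -0.287 to -0.0414 in Logit and -0.224 to 0.355 in position. In level every r was positive, from 0.146 to 0.577, the highest between 4-6 and 8-10 h. With the block Rab23 lost its level rise from 4-6 to 8-10 h (limma adjusted p = 0.0541). In Logit Rab35 and Rab26 lost their 4-6 against 0-2 h calls (0.0683 and 0.0601) and Rab18 its 8-10 against 0-2 h call (0.0513).

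Without 1 replicate at a time, members passed in level numbered 13 to 19, 2 to 16 and 13 to 20 for 4-6 against 0-2 h, 8-10 against 4-6 h and 8-10 against 0-2 h. In Logit they numbered 14 to 19, 0 to 1 and 14 to 17, and in position 0 to 5, 0 to 2 and 4 to 9. For EDTA they numbered 0 to 3, 2 to 7 and 5 to 7 at 0-2, 4-6 and 8-10 h, and 0 to 0, 0 to 0 and 0 to 2 for its difference between periods. Centring each array on its median moved the median level change of all probe sets by -0.147 from 0-2 to 4-6 h and by -0.121 from 0-2 to 8-10 h, and zetaCOP then lost its rise from 0-2 to 4-6 h (adjusted p = 0.0804). Signal near background limits Rab2, Rab9, Rab26, Rab35, RabX2 and zetaCOP in the periods named above.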

Other observations

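Position within polysomes also moved in other traffic genes. From 0-2 to 4-6 h 12 of 32 tethering genes moved deeper and none toward the top, beside 13.9% and 8.46% of all probe sets tested. Exo70, a subunit of the exocyst, moved by 1.30 fractions (adjusted p = 5.11e-05) with a mean occupancy of 38.7% at 0-2 h and 82.2% at 4-6 h. Of 22 Rab escort, regulator and effector genes 10 moved deeper and 1 toward the top. In the Arf and Arl list 3 of 11 genes moved deeper and 1 toward the top. Sec71, an exchange factor for Arf, moved deeper by 1.36 (adjusted p = 0.000143) and Arl8 toward the top by 0.54 (adjusted p = 0.0126). In the clathrin list 3 of 14 genes moved deeper and 1 toward the top. AP-2mu, an adaptor subunit, moved deeper by 1.09 (adjusted p = 0.00012) and lap toward the top by 0.91 (adjusted p = 0.00859). Among 21 retromer and ESCRT genes 2 moved deeper and 1 toward the top, and among 19 SNARE genes and partners 4 and 2 did so.

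The membrane coats differed in level as well. From 0-2 to 4-6 h clathrin and adaptor genes had 5 that rose and 5 that fell among 14, beside 25.9% and 24.6% of all probe sets tested, with AP-2alpha higher by 3.19 on the log2 scale (adjusted p = 0.0011) and AP-1sigma lower by 2.19 (adjusted p = 0.00238).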
